A study of Mus musculus with 18 samples.

Results

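Calr3, Fam219a and BC028528 are 3 of the 23420 genes in the count table, picked because their response to the proteasome inhibitor carfilzomib (CFZ) at 6 h was shifted far downward in cells without Nrf1 relative to wild-type (WT) cells, outside the gene lists the study examined. They came first, ordered from the most negative shift, among 4311 genes shifted in either direction. Those genes averaged at least 50 counts per library, lay outside the constitutive proteasome subunits and had an edgeR adjusted p under 0.05 for the shift. Another 29 genes had fitted shifts lower than that of BC028528, and all 29 averaged under 50 counts (9 of them were past the same threshold). The 3 genes were chosen on these measured values. Their fitted interaction of genotype and CFZ at 6 h, and every value that shares libraries with it, is therefore given as a description without a test. The comparison of Nrf1-KO with WT cells after 24 h of CFZ rests on libraries that are not part of the 6 h contrast, and it was tested. Those libraries did enter the average of 50 counts and the estimate of spread behind the adjusted p. The test is thus not fully separate from the choice.

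The cells were NIH-3T3, an established line of mouse embryonic fibroblasts. The WT line and a Nrf1 knockout line made by CRISPR/Cas9 (Nrf1-KO) were each given DMSO or CFZ at 200 nM, the latter for either 6 h or 24 h, with 3 biological replicates in each of the 6 groups and 18 libraries in all. The time in DMSO and whether the knockout line is a single clone were not given in the sources used here. All knockout libraries came from that line, so the genotype and the line cannot be told apart.

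Carfilzomib blocks the catalytic sites of the proteasome, the protease that degrades ubiquitin-tagged proteins. Nrf1 is the protein of the gene Nfe2l1, a transcription factor of the cap'n'collar family that is held at the endoplasmic reticulum and normally degraded. When the proteasome is inhibited, Nrf1 is extracted by the ATPase Vcp (p97), cut by the protease Ddi2 and enters the nucleus, where it pairs with small Maf proteins on antioxidant response elements and raises the genes of the proteasome itself. The symbol Nrf1 in a mouse gene table stands for another gene, nuclear respiratory factor. Calr3 encodes a relative of the endoplasmic reticulum chaperone calreticulin and is best known from the testis, where it acts in sperm maturation. Fam219a is named for sequence similarity alone, and BC028528 carries the name of a cDNA clone. No role is stated here for either.

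All 3 genes lie on the minus strand, on different chromosomes. By GENCODE release M21 on GRCm38, matched by symbol, Calr3 lies at chr8:72424176-72443870 with 1962 exonic bases, Fam219a at chr4:41517691-41569538 with 3724, and BC028528 at chr3:95883954-95892005 with 1402. Their promoters are shown because the lines differ in a factor that acts at promoters. Each run holds 250 bases before to 50 bases after a RefSeq start site (GRCm38.p6, 5′ to 3′ on the strand of the gene). Capitals mark a match to TGACNNNGC, the core of the antioxidant response element, read on either strand. The windows are chr8:72443729-72444028 for the first Calr3 start, chr4:41569489-41569788 for Fam219a and chr3:95892013-95892312 for the first BC028528 start.
Calr3, first start: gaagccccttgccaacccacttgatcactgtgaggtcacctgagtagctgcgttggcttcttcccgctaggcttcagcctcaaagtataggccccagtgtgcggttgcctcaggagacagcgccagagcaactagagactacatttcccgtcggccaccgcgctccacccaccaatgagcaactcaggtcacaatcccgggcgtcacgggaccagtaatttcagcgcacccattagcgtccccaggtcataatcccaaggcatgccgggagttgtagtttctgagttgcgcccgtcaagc
Fam219a: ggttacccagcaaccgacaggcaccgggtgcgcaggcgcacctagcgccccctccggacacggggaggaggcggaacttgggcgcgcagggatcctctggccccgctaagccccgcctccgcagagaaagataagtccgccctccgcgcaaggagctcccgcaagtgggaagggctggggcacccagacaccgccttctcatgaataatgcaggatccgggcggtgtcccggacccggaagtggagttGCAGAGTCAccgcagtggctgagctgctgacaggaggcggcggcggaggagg
BC028528, first start: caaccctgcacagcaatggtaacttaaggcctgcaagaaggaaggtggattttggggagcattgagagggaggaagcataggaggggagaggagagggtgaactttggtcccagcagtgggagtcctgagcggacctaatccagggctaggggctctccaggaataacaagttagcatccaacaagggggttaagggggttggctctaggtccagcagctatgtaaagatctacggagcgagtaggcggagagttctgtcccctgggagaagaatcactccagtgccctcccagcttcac

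The Fam219a window held 1 match, GCAGAGTCA on the strand of the gene, which lies across the start site at chr4:41569532-41569540. Neither the first Calr3 window nor either of the 2 BC028528 windows held a match. A second Calr3 start inside the gene, with the window chr8:72435107-72435406, held 1 match that began 186 bases before that start, and its letters were the same as in Fam219a. The matches are set side by side with the bases around them, because they share 9 letters where the motif fixes only part of them.
Calr3, second start: tggtgtacatGCAGAGTCAgagggcaaga
Fam219a: aagtggagttGCAGAGTCAccgcagtggc
Of all 32851 promoters of this length in RefSeq, 12.4% held TGACNNNGC and 0.426% held the word GCAGAGTCA on either strand. That word was picked after it had been seen in both genes. None of the member windows held TGAGTCA, an AP-1 type site searched on both strands to see whether the motifs overlapped, and 5.2% of all promoters held it. Of the constitutive proteasome subunit genes, 26 had a promoter in the table and 5 of those held TGACNNNGC. Counted by gene in the same way, 14% of 27025 genes held it in any of their promoters. A match is a stretch of letters, and no binding was measured in these libraries.

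The total count per library ran from 8333148 to 23917081, with a median of 14419832. Counts were scaled by the TMM method of edgeR to CPM (counts per 1000000 counts of the library), and 11762 genes passed its expression filter, all 3 members among them. Nfe2l1 read 457, 437 and 449 CPM in the 3 WT libraries in DMSO and 174, 185 and 181 in the Nrf1-KO libraries. At 6 h it read 650, 648 and 628 against 414, 416 and 427, and at 24 h 559, 555 and 580.0 against 210, 202 and 201. Nfe2l1 was thus lower in every Nrf1-KO library than in any WT library of the same treatment, by a log2 difference of -1.31 in DMSO, -0.62 at 6 h and -1.47 at 24 h (edgeR adjusted p = 1.56e-24, 1.14e-16 and 1.99e-26). Its transcript was still counted in Nrf1-KO cells, and gene counts do not show the edit. All 8 fibroblast markers were detected, with the lowest group mean at 21.4 CPM for Thy1. Their group means were lower at 24 h of CFZ than in DMSO in both lines, except for Vim in Nrf1-KO cells (3400 and 3450 CPM in DMSO and at 24 h). Col1a1 went from 7610 to 873 CPM in WT and from 5830 to 807 in Nrf1-KO cells. Of the 4 epithelial markers, Epcam and Krt18 had 0 counts and Krt8 at most 3, whereas Cdh1 had group means of 6.12, 1.07 and 0.556 CPM in WT cells and 11.6, 3.91 and 0.397 in Nrf1-KO cells (DMSO, 6 h and 24 h). The endothelial Cdh5 and the leukocyte Cd68 reached 2.95 and 3.21 CPM in WT and 3.40 and 4.48 CPM in Nrf1-KO cells at 24 h, Pecam1 at most 0.293 in any group, and Ptprc was at 0 in WT cells and at 0.891 to 1.22 CPM in Nrf1-KO cells. The part of these markers in the results was not tested.

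Calr3 had the largest fold change of the 3 in WT cells. In WT cells it stood at 1.42, 1.48 and 1.33 CPM in DMSO, at 18.2, 19.0 and 19.1 after 6 h of CFZ and at 48.2, 50.2 and 51.9 after 24 h. Each WT treatment lay above the one before it in all libraries, with mean levels 13.3-fold and 35.6-fold above DMSO. In Nrf1-KO cells it stood at 2.04, 1.91 and 2.62 CPM in DMSO, at 1.25, 2.08 and 1.80 at 6 h and at 4.16, 4.66 and 4.69 at 24 h. The Nrf1-KO libraries at 6 h overlapped those in DMSO, and those at 24 h lay above both. At 24 h Calr3 was 11.1-fold lower in Nrf1-KO than in WT cells, at 4.50 ± 0.302 against 50.1 ± 1.88 CPM (SD, n = 3 each).

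**Figure D1:**
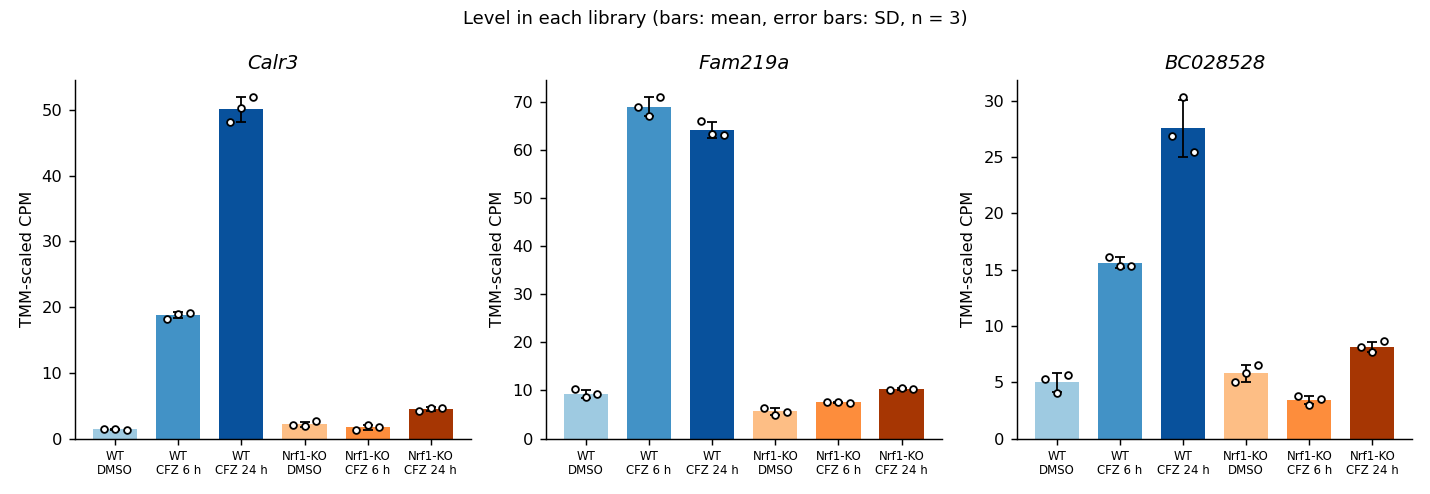
TMM-scaled CPM (y axis, linear from 0) of Calr3, Fam219a and BC028528 in the 6 groups of WT and Nrf1-KO cells; bars are means, error bars SD and points the 3 libraries. At 24 h of CFZ the WT means are 50.1, 64.1 and 27.6 CPM and the Nrf1-KO means 4.50, 10.3 and 8.14 CPM.

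Fam219a had the highest mean CPM of the 3 in every group except Nrf1-KO cells in DMSO, where BC028528 was at 5.80 and Fam219a at 5.65. It was the only one that was not higher at 24 h than at 6 h in WT cells. Its WT libraries read 10.2, 8.56 and 9.21 CPM in DMSO, 68.9, 67.0 and 71.0 at 6 h and 66.0, 63.2 and 63.2 at 24 h. The WT rise was already present at 6 h, and all 24 h libraries lay just below those of 6 h. No time between them was sampled. Nrf1-KO libraries read 6.43, 4.96 and 5.55 CPM in DMSO, 7.63, 7.57 and 7.31 at 6 h and 10.1, 10.5 and 10.4 at 24 h. They were below WT already in DMSO, where the means were 5.65 ± 0.740 and 9.34 ± 0.848 CPM (SD, n = 3 each), and after 24 h of CFZ they overlapped the untreated WT cells, with 2 of the 3 libraries above the highest of those. At 24 h Fam219a was 6.21-fold lower in Nrf1-KO than in WT cells.

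BC028528 stood at 5.33, 4.01 and 5.63 CPM in WT cells in DMSO, at 16.1, 15.4 and 15.4 at 6 h and at 26.8, 30.3 and 25.5 at 24 h. In Nrf1-KO cells the libraries read 5.06, 5.79 and 6.55 CPM in DMSO, 3.74, 3.01 and 3.48 at 6 h and 8.10, 7.71 and 8.63 at 24 h. The lines overlapped in DMSO, whereas at 6 h every WT library lay above and every Nrf1-KO library below its own DMSO range. By 24 h the Nrf1-KO libraries had moved above their DMSO range too, yet were 3.38-fold lower than WT. C920021L13Rik, an antisense gene, shares 49.8% of the exonic bases of BC028528, and 32.5% of the stretches of its transcripts as long as a read. Whether reads were counted by strand was not given in the sources used here, so part of the BC028528 count could stem from that gene. C920021L13Rik itself had at most 7 counts in any library, 6, 7 and 7 in WT and 1, 1 and 1 in Nrf1-KO cells at 24 h, against 264 to 506 and 115 to 139 counts for BC028528.

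The 24 h comparison of Nrf1-KO with WT cells, the only test of the members, was past the threshold for all 3 genes. The log2 difference was -3.47 for Calr3 (SE 0.08, edgeR adjusted p = 1.99e-26), -2.63 for Fam219a (SE 0.062, adjusted p = 2.86e-26) and -1.77 for BC028528 (SE 0.091, adjusted p = 1.96e-17). The lines did not overlap for any of them: the lowest WT library was 48.2, 63.2 and 25.5 CPM and the highest Nrf1-KO library 4.69, 10.5 and 8.63 CPM, in the same order. Such a call was common, since 36.4% of the 11762 genes were lower and 35.6% higher in Nrf1-KO cells by the same rule (an edgeR adjusted p under 0.05, with no minimum fold). By the size of the difference they stood at places 38, 74 and 189 from the most negative of the 11762 log2 differences. In bulk RNA, fewer responding cells and less RNA per cell cannot be told apart.

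**Figure D2:**
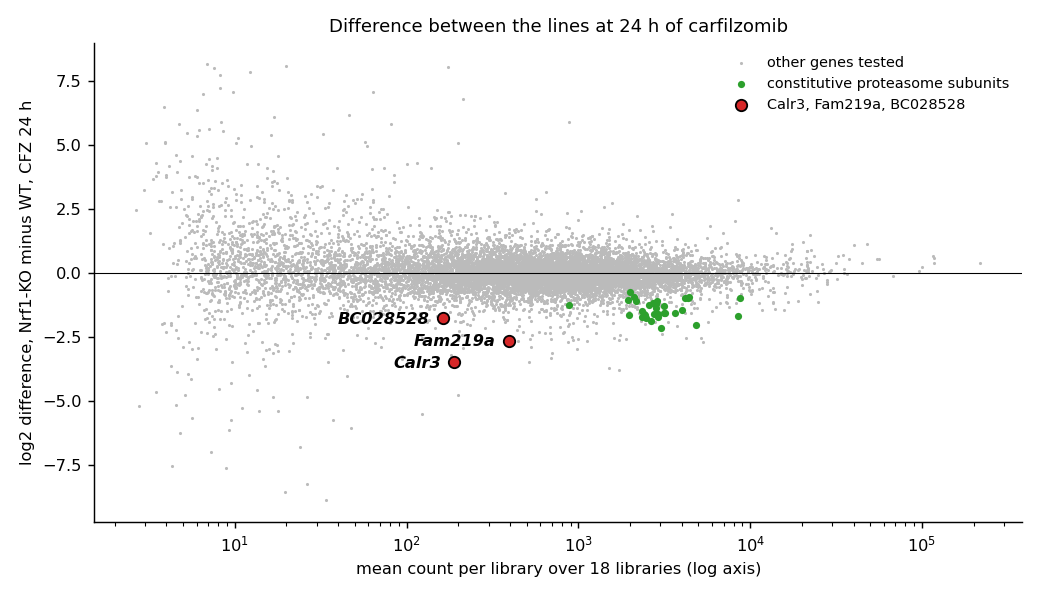
Log2 difference between Nrf1-KO and WT cells after 24 h of CFZ (y axis) against the mean count per library (x axis, log scale) for all genes tested, with the 32 constitutive proteasome subunits in green and the 3 members in red. Calr3 (-3.47), Fam219a (-2.63) and BC028528 (-1.77) lie below most genes of like abundance, at lower counts than the proteasome subunits.

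The responses to CFZ within each line are given as descriptions. In WT cells the log2 fold change at 6 h was 3.72 (SE 0.124) for Calr3, 2.88 (SE 0.061) for Fam219a and 1.65 (SE 0.112) for BC028528, and at 24 h it was 5.15, 2.77 and 2.47. In Nrf1-KO cells the values at 6 h were -0.42 (SE 0.205), 0.42 (SE 0.111) and -0.80 (SE 0.159), so the members differed in sign, and at 24 h they were 0.99, 0.88 and 0.46. The increase over DMSO that remained in Nrf1-KO cells at 24 h came to 4.75% of the WT increase in CPM for Calr3, 8.52% for Fam219a and 10.4% for BC028528. With counts scaled by library size alone, the median of all genes shifted by -0.18 in the Nrf1-KO response at 24 h, and these members' values became 0.81, 0.69 and 0.27.

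The difference between those responses, the interaction, was -4.15 (SE 0.246) for Calr3, -2.46 (SE 0.130) for Fam219a and -2.44 (SE 0.192) for BC028528 at 6 h, the values that chose them. At 24 h it was -4.15 (SE 0.216), -1.89 (SE 0.121) and -2.01 (SE 0.160), and these share the DMSO libraries with the 6 h values. By an adjusted p under 0.05, 18.4% of all genes were lower and 19.8% higher in the interaction at 6 h, and 30% and 29.7% at 24 h. Among the same 4311 genes, the next in the order at 6 h were Mfsd6, a membrane transporter-like protein, at -2.33, Arnt2, a partner of PAS-domain transcription factors, at -2.17, and Sumf2, a relative of the sulfatase-activating enzyme, at -2.12. The step from BC028528 to Mfsd6 was thus smaller than the standard error of the former.

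Per length, the order of the 3 genes changed with the treatment. In WT cells in DMSO BC028528 was highest at 3.56 ± 0.613 CPM per kb of exon (SD, n = 3), followed by Fam219a at 2.51 ± 0.228 and Calr3 at 0.717 ± 0.0387. After 24 h of CFZ Calr3 was highest at 25.5 ± 0.958, followed by BC028528 at 19.7 ± 1.79 and Fam219a at 17.2 ± 0.434 CPM per kb, and the last pair differed by less than 2 of the larger SD, as did the first pair in DMSO. In Nrf1-KO cells at 24 h the order was again that of untreated WT cells, with BC028528 at 5.81 ± 0.327, Fam219a at 2.77 ± 0.0589 and Calr3 at 2.29 ± 0.154 CPM per kb.

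The relatives of Calr3 and Fam219a had interactions near 0. Calr, which encodes calreticulin, the soluble lectin chaperone of the endoplasmic reticulum, stood at 320.0 CPM per kb in WT cells in DMSO and at 649 after 24 h, and at 338 and 799 in Nrf1-KO cells. Its interaction was -0.04 at 6 h (edgeR adjusted p = 0.547) and 0.22 at 24 h (adjusted p = 8.61e-05), a larger rise in Nrf1-KO cells where Calr3 had a smaller one. The Calr promoter, in the window chr8:84846882-84847181, held 2 matches to TGACNNNGC. Canx, the membrane-bound chaperone calnexin, had an interaction of 0.09 at 6 h (adjusted p = 0.0925), which was called with DESeq2 and under both other scalings, and of 0.20 at 24 h (adjusted p = 0.000111). Fam219b had an interaction of -0.06 at 6 h (adjusted p = 0.648) and of 0.00 at 24 h (SE 0.087), with levels between 17.7 and 27.5 CPM over the 6 group means. Calr4 (1 to 15 counts in a library) and the testis chaperone Clgn (2 counts in all) did not pass the filter. No stretch of the Calr3 transcripts as long as a read occurred in another gene, and 7.55% of those of Fam219a were shared with its antisense gene Fam219aos, which is not a row of the count table.

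**Figure D3:**
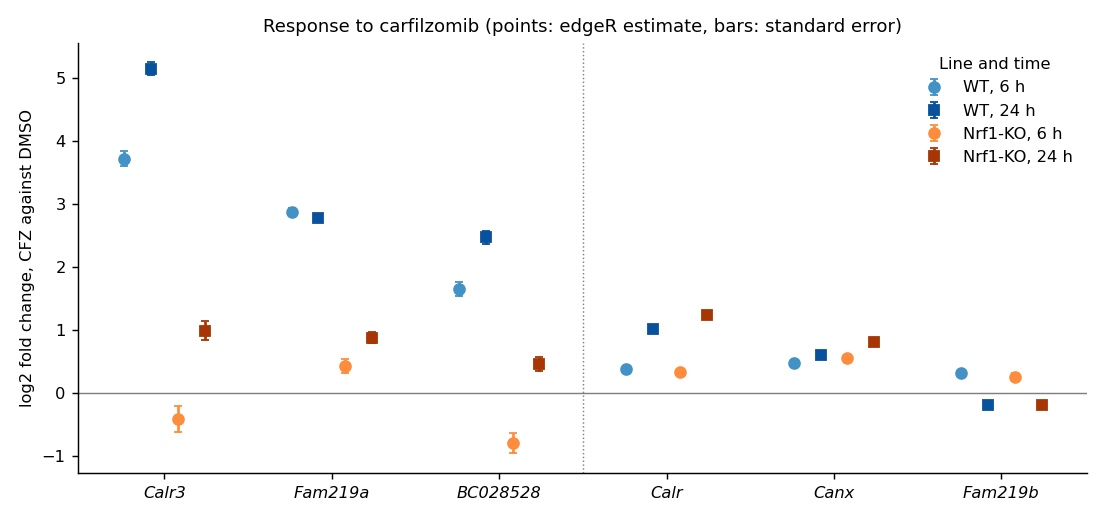
Log2 fold change of CFZ against DMSO (y axis) in WT cells (blue) and Nrf1-KO cells (orange) at 6 h (circles) and 24 h (squares) for the 3 members and the tested relatives Calr, Canx and Fam219b; bars are standard errors. The lines lie far apart for Calr3, Fam219a and BC028528 and close together for the relatives, whose interactions run from -0.06 to 0.22.

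Because Calr3 is known from the testis, 18 germ cell genes were examined beside it. None passed the expression filter, and their counts summed over all 18 libraries ran from 0 to 26. The highest sums were those of Ddx4, a germ cell RNA helicase (26 counts), and Sycp3, of the meiotic chromosome axis (18 counts), and the sperm genes Prm1 and Acrv1 were at 0. Calr3 reached 838 counts in a WT library at 24 h, and no gene of this list had more than 26 counts over all libraries together.

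The nearest genes on either side of each member were examined for a shared change, and 8 of them passed the filter. Start sites of Calr3 and 1700030K09Rik lie 10 bases apart and point away from each other. 1700030K09Rik read 12.9 ± 0.644 CPM in WT cells in DMSO, 13.7 ± 1.34 at 6 h and 14.9 ± 0.758 at 24 h (SD, n = 3), and 13.3 ± 0.109, 14.5 ± 1.26 and 11.8 ± 0.929 in Nrf1-KO cells. Its interaction was 0.02 at 6 h (edgeR adjusted p = 0.908) and -0.41 at 24 h (adjusted p = 0.00366) beside -4.15 for Calr3 at either time. On the other side of Calr3, Eps15l1, an endocytic adaptor, differed by -0.28 and Klf2, a Krüppel-like transcription factor 102.5 kb away, by -1.03 between the lines at 24 h (adjusted p = 2.63e-07 and 2.11e-14), and beyond 1700030K09Rik the difference for Cherp was -0.54 (adjusted p = 7.64e-12).

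Next to Fam219a, 1110017D15Rik begins in the genome 358 bases past its end on the same strand. It had 4 to 17 counts in WT libraries, namely 8, 5 and 4 in DMSO, 11, 12 and 17 at 6 h and 7, 13 and 17 at 24 h, against 0 to 2 in every Nrf1-KO library. The groups did not overlap in any treatment. At 24 h the log2 difference was -4.13, past the threshold (edgeR adjusted p = 4.39e-07), beside -2.63 for Fam219a. In DMSO the difference was already -3.71 for 1110017D15Rik (adjusted p = 0.000305), beside -0.74 for Fam219a. In WT cells the response of 1110017D15Rik to CFZ was called at 6 h and 24 h (1.58 and 1.38, adjusted p = 0.000441 and 0.0016). In Nrf1-KO cells it was not (1.87 and 0.95, adjusted p = 0.171 and 0.491). The interaction was not called (adjusted p = 0.779 at 6 h and 0.95 at 24 h). On those few Nrf1-KO counts the interaction cannot tell whether the responses differed. The SE taken from the F statistic was 0.677 and 4.81 and is not a usable error here. The value at 6 h was below the SE of the Nrf1-KO response at 6 h (1.19), which is part of that interaction. AI464131 on the same side went the other way, with a difference of 0.24 at 24 h (adjusted p = 0.00347), and Dnaic1 and Enho on the other side did not pass the filter. Beside BC028528, the difference at 24 h was -0.34 for Mrps21, of the mitochondrial ribosome, and -0.56 for Aph1a, a gamma-secretase subunit (adjusted p = 8.82e-05 and 5.27e-13), and Car14 did not pass the filter. Of the 8 neighbours, 7 were lower and 1 was higher in Nrf1-KO cells at 24 h. In the interaction at 6 h 2 were lower, 2 higher and 4 not called, and at 24 h 5 were lower, 1 higher and 2 not called. Over all genes tested, 36.4% were called lower and 35.6% higher between the lines at 24 h. The shares were 18.4% and 19.8% in the 6 h interaction and 30% and 29.7% in the 24 h interaction.

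**Figure D4:**
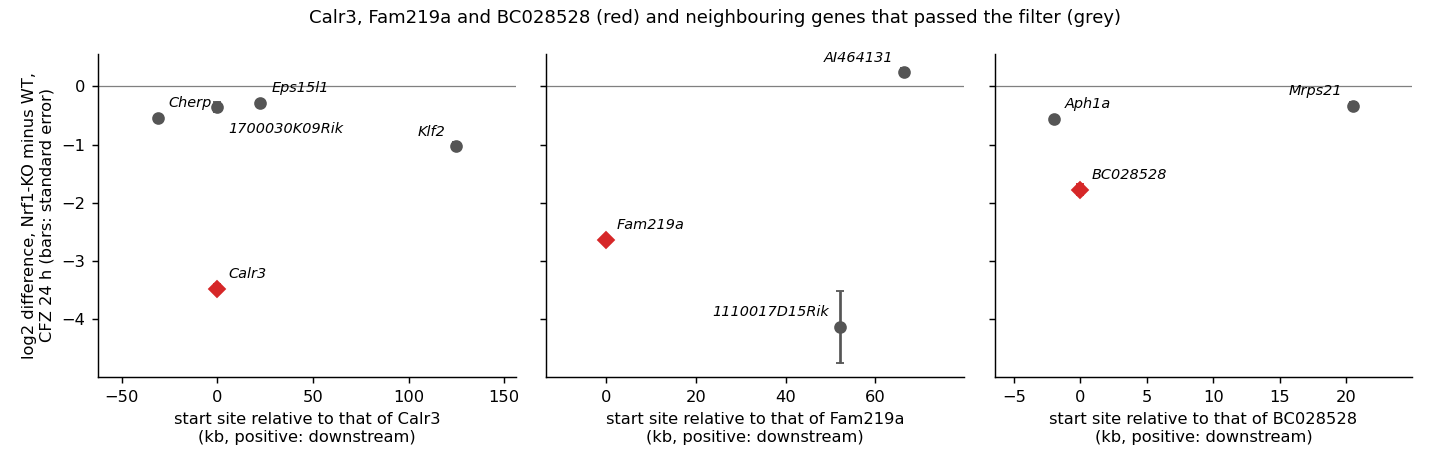
Log2 difference between Nrf1-KO and WT cells after 24 h of CFZ (y axis, bars are standard errors) against the position of the start site relative to that of Calr3, Fam219a or BC028528 (x axis, kb). Except for 1110017D15Rik, which had at most 17 counts in a library, the neighbours (grey, -1.03 to 0.24) lie nearer to 0 than the member (red).

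Among 10257 genes averaging at least 50 counts per library, those whose 6 group means of log2 CPM followed a member most closely were found by Pearson's r, given as a description over 6 points that share libraries. For Calr3 they were Ptprn, a receptor phosphatase-like protein of secretory vesicles (r = 0.9982), the proteasome subunit Psmd2 (0.9973) and Afg3l2, a subunit of a mitochondrial inner membrane protease (0.9939). For Fam219a they were Mocos, which sulfurates the molybdenum cofactor (0.9995), the proteasome subunit Psmd1 (0.9982) and Skiv2l2, an RNA helicase of the nuclear exosome (0.9963). For BC028528 they were the prefoldin subunit H2-Ke2 (0.9918), the ATPase Ruvbl1 (0.9896) and Anapc10, of the anaphase-promoting complex (0.9862). Likeness of shape did not mean likeness of size: the log2 fold change in WT cells at 24 h was 1.66 for Ptprn and 0.75 for Afg3l2, against 5.15 for Calr3. Between the members r was 0.9357 for Calr3 and Fam219a, 0.9792 for Calr3 and BC028528 and 0.9074 for Fam219a and BC028528.

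The constitutive proteasome subunits, the known targets of Nrf1, moved in the same direction by less. All 32 were tested and all 32 were lower in Nrf1-KO cells at 24 h, with a median log2 difference of -1.46 (from -2.13 for Psmb3 to -0.75 for Psmd14) beside 0.00 over all genes. In the interaction all 32 were also lower, with a median of -1.15 at 6 h (from -1.68 for Psmd3 to -0.60 for Psmd8) and of -1.13 at 24 h (from -1.69 for Psmb3 to -0.55 for Psmd14), against 0.02 and 0.00 over all genes. Of all genes tested, 36.4% were called lower between the lines at 24 h, 18.4% in the 6 h interaction and 30% in the 24 h interaction. The 3 members lay below the lowest subunit in both interactions, the 6 h values being those that chose them. Between the lines at 24 h Calr3 and Fam219a lay below the lowest subunit and BC028528 lay within the range of the subunits.

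Of 15 genes for Nrf1, its relatives, its partners and the proteins that process it, 14 passed the filter, and Nfe2l3 had 0 counts. In the interaction at 6 h 6 were lower, 3 higher and 5 not called (median -0.14), at 24 h 8 were lower, 4 higher and 2 not called (median -0.22), and between the lines at 24 h 6 were lower and 4 higher (median 0.01). Over all genes tested, the shares lower and higher were 18.4% and 19.8%, 30% and 29.7%, and 36.4% and 35.6%, in the same order. Under other scalings the counts of the 14 genes changed by at most 2 genes in a direction. The largest negative values in the interaction were those of Vcp, the ATPase that extracts Nrf1 from the membrane, with -1.10 at 6 h (edgeR adjusted p = 6.6e-17), and of Keap1, the adaptor that targets the related factor Nrf2 for degradation, with -1.56 at 24 h (adjusted p = 4.26e-19). The small Maf genes Maff and Mafg were lower in the interaction at 6 h, with -1.0 and -0.72 (adjusted p = 1.4e-06 and 9.38e-08). They were named after their values had been seen. Mafk, the other small Maf gene listed, was not called at 6 h (-0.12, adjusted p = 0.208). Between the lines at 24 h, Maff and Mafk were higher (0.38 and 0.11, adjusted p = 3.76e-07 and 0.00567) and Mafg lower (-0.17, adjusted p = 0.00372). Bach1, a repressor at the same elements, was lower in the interaction at 6 h, with -0.64 (adjusted p = 2.48e-09), and higher at 24 h, with 0.30 (adjusted p = 0.00019). Nfe2l1 was higher in the interaction at 6 h, with 0.70 (adjusted p = 1.61e-13), the opposite sign to Calr3, Fam219a and BC028528.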

How the data were processed

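Stranded mRNA libraries were sequenced in pairs and run through RNA Express (STAR and DESeq2). The authors deposited raw counts per gene symbol. The genome build, annotation, versions and use of strand were not given in the sources used here. Groups and replicate numbers came from the labels. The members and gene lists were chosen with earlier results of these data known.

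The counts were tested with edgeR 4.0.16 in R 4.3.3, with filterByExpr (minimum count 10, minimum total 15), TMM scaling, 1 quasi-likelihood model of the 6 groups over 18 libraries and Benjamini-Hochberg adjustment over 11762 genes (threshold 0.05). Standard errors were taken as the absolute log2 value over the root of its F statistic. The interaction is the Nrf1-KO response minus the WT response. Likeness used log2(CPM + 0.25). Replicates varied little (common biological coefficient of variation 3.13%), and small differences were therefore called. Replicate pairs differed by more than counting noise (chi-square per degree of freedom from 1.438 to 8.469). The test was checked on simulated counts. Genes named were the members, Nfe2l1, paralogues, the 2 nearest genes on each side, the 3 most alike genes per member, the next 3 in the order and the extremes of each list. The alternatives were DESeq2 1.42.0, other scalings and filters, a model of the compared groups, a replicate block, a minimum fold of 2 and leaving out each library. Positions came from GENCODE M21, to which 21751 symbols matched.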

Additional observations from a re-analysis of the deposited data

Results flagged for a closer look

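The values in this section were picked out because the response to CFZ differed between the WT and Nrf1-KO lines. For every gene but BC028528 this was by edgeR's test of the interaction (adjusted p under 0.05), which called 18.4% of genes lower and 19.8% higher at 6 h, and 30% and 29.7% at 24 h. Groups of 3 libraries were not searched for outlying samples.

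The log2 interaction of Nfe2l1 was 0.70 at 6 h and -0.15 at 24 h, so its own transcript gained more in Nrf1-KO cells at the earlier time and less at the later. The chaperones Calr and Canx had 0.22 and 0.20 at 24 h. Near Calr3, Klf2 had 0.21 at 6 h and -0.68 at 24 h, Cherp -0.26 and -0.32, and 1700030K09Rik -0.41 at 24 h. AI464131, near Fam219a, had 0.48 at 6 h and 0.85 at 24 h. Beside BC028528, Aph1a had -0.33 at 6 h and -0.32 at 24 h, and Mrps21 had -0.33 at 24 h. BC028528 itself had -2.44 at 6 h, where every WT library was above and every Nrf1-KO library below the DMSO range of its line, a difference that was not tested because it chose the gene.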

How the results depend on the processing

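The difference between the lines at 24 h kept its direction and its call for Calr3, Fam219a and BC028528 under DESeq2, the other scalings and filters, the model of the compared groups, the replicate block and each library left out, with a highest adjusted p of 7.72e-16, 9.66e-16 and 1.78e-11. With a library left out it ran from -3.5 to -3.41, from -2.64 to -2.6 and from -1.83 to -1.68, and under the other alternatives from -3.5 to -3.43, from -2.66 to -2.59 and from -1.8 to -1.72. With a library left out, the 6 h interaction ran from -4.36 to -3.92 for Calr3, from -2.56 to -2.37 for Fam219a and from -2.54 to -2.31 for BC028528, and the 24 h interaction from -4.24 to -3.96, from -1.97 to -1.81 and from -2.09 to -1.88.

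A minimum fold of 2 left 651 genes lower and 789 higher between the lines at 24 h (4278 and 4189 without it), 185 and 142 in the 6 h interaction (2170 and 2332) and 533 and 479 in the 24 h interaction (3532 and 3498). Canx at 6 h was called under DESeq2 (0.09, adjusted p = 0.0203), upper-quartile scaling (0.12, adjusted p = 0.0209) and library size alone (0.11, adjusted p = 0.0383). Fam219b at 24 h, with a fitted interaction just below 0, turned positive without being called under DESeq2 (0.00), upper-quartile scaling (0.03), no expression filter (0.01) and the model of the compared groups (0.00), and with a library left out it ran from -0.03 to 0.05. Ddi2 at 24 h was not called under library size alone (0.20, adjusted p = 0.0792). Eps15l1 at 24 h was called lower in the interaction under library size alone (-0.18, edgeR adjusted p = 0.00794) but not with TMM (-0.11, adjusted p = 0.116). The 8 neighbours were then 6 lower, 1 higher and 1 not called. Between the lines at 24 h, Fam219b was called lower under library size alone (-0.17, adjusted p = 0.0325) but not with TMM (-0.14, adjusted p = 0.0794). The cause of these shifts was not tested.

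Same-numbered libraries of different groups did not deviate together (mean correlation 0.0136 over 45 pairs, from -0.0494 to 0.0972). This measure cannot show whether they were handled together, and the labels give only a number. With a replicate block, the difference at 24 h was -3.47, -2.63 and -1.77 for the 3 genes, the interaction at 6 h -4.12, -2.46 and -2.44, and 4312 genes were lower and 4217 higher between the lines at 24 h, and no call of a member or relative changed. Depth limits Calr3 most in Nrf1-KO cells at 6 h, where it rested on 15 to 27 counts.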

Other observations

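The 3 genes that came next after the members in the order at 6 h, Mfsd6, Arnt2 and Sumf2, were also higher in every CFZ-treated WT library than in DMSO, and their levels are given without a test. Mfsd6 stood at 12.6 ± 0.816 CPM (SD, n = 3) in WT cells in DMSO, 54.6 ± 1.22 at 6 h and 47.9 ± 1.99 at 24 h, and at 26.4 ± 1.79, 22.8 ± 0.493 and 23.8 ± 0.668 in Nrf1-KO cells. Unlike the 3 members at 24 h, none of these genes had a higher mean in Nrf1-KO cells with CFZ than in Nrf1-KO cells in DMSO. Arnt2 stood at 7.49 ± 0.356, 18.1 ± 1.25 and 15.2 ± 0.232 CPM in WT cells and at 3.98 ± 0.112, 2.19 ± 0.611 and 2.83 ± 0.752 in Nrf1-KO cells. Sumf2 stood at 36.2 ± 0.662, 86.0 ± 0.825 and 110.4 ± 2.35 CPM in WT cells and at 36.9 ± 1.11, 20.6 ± 3.1 and 25.6 ± 0.712 in Nrf1-KO cells.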
